A study of Mus musculus with 42 samples.

Results

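The comparison followed gene expression in macrophages of young mice across lights-off, from zeitgeber time (ZT) 12, when the lights go off by convention, to ZT16, 4 h later. Zeitgeber time counts the hours from lights-on. Its members are the 3 libraries of young ZT12 and the 3 of young ZT16, chosen by their labels, 6 of 42 libraries in the series. The other libraries are young cells at the 5 remaining times and aged cells at all 7 times, again with 3 libraries each. All mice are C57BL/6 with no transgene, deletion or treatment named. The young mice were 2 to 3 months old and the aged mice 18 to 20 months old. The labels name the cells as macrophages without giving the tissue of origin, and they do not say whether the 3 libraries of a group come from separate animals. The p-values therefore measure the spread between these libraries, which may be technical. In such bulk samples a lower level of a transcript and a smaller share of the cells that carry it cannot be told apart.

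Macrophages hold a cell-autonomous circadian clock. CLOCK and BMAL1 (encoded by Arntl) drive the Per, Cry and Nr1d genes, whose products repress that drive in turn, and output factors such as DBP and NFIL3 carry the rhythm to other genes. In mice, which are active at night, the hours around lights-off also bring activity, feeding, a higher body temperature and the daily peak of corticosterone. Heat shock factors and the unfolded protein response, which raise chaperones of the cytosol and of the endoplasmic reticulum, respond to temperature and to secretory load, and the glucocorticoid receptor raises genes such as Fkbp5 and Per1.

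The 6 libraries held between 8236377 and 11379385 reads, detected 14728 to 16412 genes and had 1.52% to 1.82% of reads on mitochondrial genes. Macrophage identity genes were abundant in each of them. Adgre1, which encodes F4/80, lay between 5584 and 7089 normalized reads (reads divided by a size factor per library), and the lysozyme gene Lyz2 between 210454 and 319633. Gata6, the transcription factor of resident peritoneal macrophages, lay between 1050 and 1273. Among the markers of 8 other cell types, the summed level of 23 T and NK cell markers was 377 to 559 at ZT12 and 286 to 355 at ZT16, lower in every ZT16 library. The sum of 14 neutrophil markers was 717 to 770 at ZT12 and 810 to 1044 at ZT16, with Elane at 0. The 18 mesothelial and fibroblast markers summed to 8.87 to 14.2 and then to 22.8 to 60.1, with 7 of them at 0 in all 6 libraries. The sums of B cell, mast cell, eosinophil, dendritic cell, and erythroid and platelet markers overlapped between the times. Over the 6 libraries they were 17833 to 23693 for B cells, 2000 to 3117 for mast cells and 19545 to 24208.5 for eosinophils. For dendritic cells they were 3433 to 4325, and for erythroid cells and platelets 25405 to 29936. The part of these cells in the results was not tested.

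Between ZT12 and ZT16, 2 of 12113 genes tested changed, which is 0.0165% of them, and both rose. They were Tppp3, which encodes a tubulin polymerization-promoting protein, and Cd44, the receptor for hyaluronan. The test was limma's on log2(normalized reads + 1), a scale that understates the change of genes with few reads, with a Benjamini-Hochberg adjusted p under 0.05. No gene fell by this main limma fit, with 459 lower genes at an unadjusted p under 0.05. Lower genes numbered 1 by edgeR and 13 by DESeq2. Fitted to only the 6 libraries of ZT12 and ZT16, limma called 8 lower genes, and with array weights 3. At an unadjusted p under 0.05, 914 genes differed (7.55%), 455 higher (3.76%) and 459 lower (3.79%). In 808 genes (6.67%) all 3 ZT16 values lay above all 3 ZT12 values, and in 852 (7.03%) all lay below. The median change over all genes was -0.005 on the log2 scale, and 49.2% of genes had a change above 0. From the same fit, 205 genes were called from ZT0 to ZT4 (1.69%), 23 from ZT4 to ZT8 (0.19%), 10 from ZT8 to ZT12 (0.0826%), 15 from ZT16 to ZT20 (0.124%) and 11 from ZT20 to ZT24 (0.0908%). The differences between these counts were not tested.

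**Figure D1:**
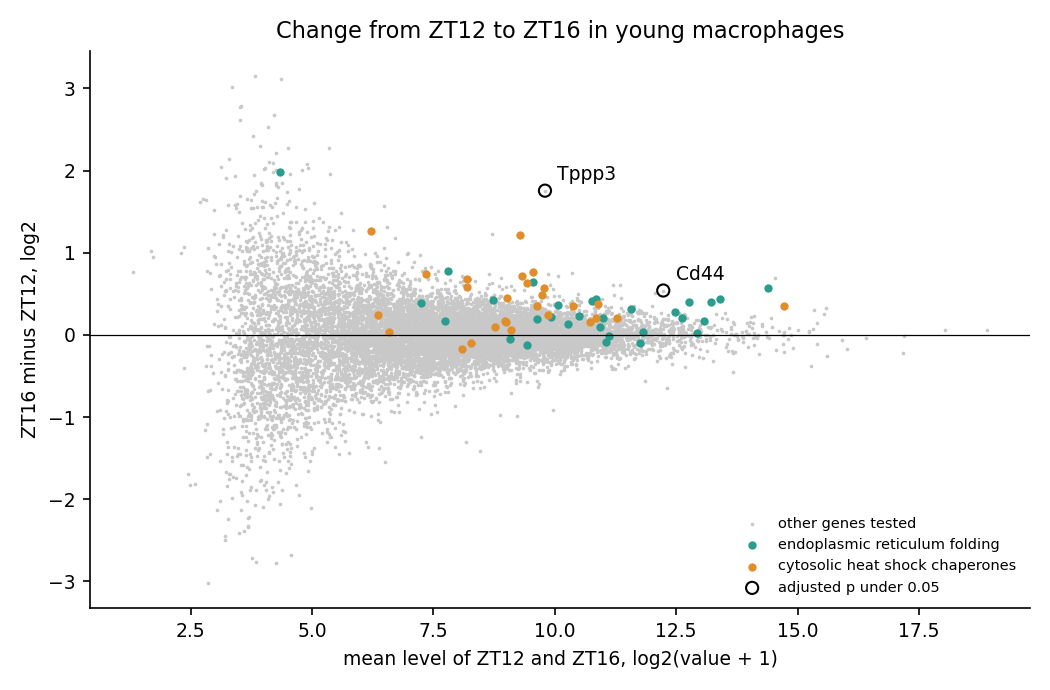
Change from ZT12 to ZT16 in young macrophages (log2, vertical axis) against the mean level of both times on the scale log2(value + 1) (horizontal axis), 1 point per gene tested. The 2 circled genes, Tppp3 and Cd44, passed an adjusted p of 0.05; members of the endoplasmic reticulum folding list (green) and the cytosolic heat shock list (orange) lie mostly above 0.

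Tppp3 stood at 345, 347 and 542 normalized reads in the ZT12 libraries and at 1398, 1168 and 1538 in the ZT16 libraries. Each ZT16 library was thus more than double the highest ZT12 library. The mean went from 411 ± 113 to 1368 ± 187 (SD, n = 3 each), a log2 change of 1.76 with a standard error of 0.25, a 95% interval of 1.23 to 2.29 and an adjusted p of 0.0203. The gene lies on chromosome 8, from 105467493 to 105471526 on the minus strand of GRCm38. Without 1 library at a time the change was 1.65 to 1.97 and its adjusted p 0.00345 to 0.171, and the call was kept only without ZT12 replicate 3.

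Cd44 stood at 3853, 4336 and 3605 normalized reads at ZT12 and at 5920, 5721 and 5469 at ZT16. The groups did not overlap, and the spread at each time was small beside the step. Its mean went from 3932 ± 371 to 5703 ± 226 (SD, n = 3 each), a log2 change of 0.54 with a standard error of 0.10, a 95% interval of 0.33 to 0.75 and an adjusted p of 0.0485. Leaving out any 1 of the 6 libraries ended this call, with changes of 0.48 to 0.61 and adjusted p of 0.0795 to 0.283, as did a pseudocount of 0.5, scaling to the total and empirical Bayes without robust estimation. Cd44 lies on chromosome 2, from 102811141 to 102901665 on the minus strand, and was the 1 called gene among 23 tested of the adhesion and migration list. The 250 bases before its RefSeq start (GRCm38.p6, minus strand, chr2:102901666-102901915) are shown because Cd44 changed, and they hold none of the motifs searched below.

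Cd44: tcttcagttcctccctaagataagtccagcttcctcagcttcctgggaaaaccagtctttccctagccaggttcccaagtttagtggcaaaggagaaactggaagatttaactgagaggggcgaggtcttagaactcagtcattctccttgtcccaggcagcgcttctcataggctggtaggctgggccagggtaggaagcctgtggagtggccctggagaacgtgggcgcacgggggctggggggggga

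The endoplasmic reticulum folding genes were mostly higher at ZT16. Of 30 members, 15 were higher in all 3 ZT16 libraries and 1, Derl1, was lower in all 3, beside 6.67% and 7.03% of all genes, and 25 had a change above 0. The list's median change was 0.22 on the log2 scale, beside -0.005 over all genes. No member passed the adjusted threshold by the main limma fit or edgeR, and 13 were higher at an unadjusted p under 0.05. DESeq2 called 4, namely Calr, Hsp90b1, Hspa5 and Sdf2l1. Limma called Hspa5 and Sdf2l1 with only the 6 libraries of ZT12 and ZT16 or with array weights. With a pseudocount of 5 or upper quartile scaling it called Hspa5.

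Hspa5 encodes BiP, the HSP70 of the endoplasmic reticulum and the sensor partner of the unfolded protein response. It stood at 15786, 18279 and 17586 normalized reads at ZT12 and at 27795, 24237 and 24662 at ZT16. The lowest ZT16 library lay above the highest ZT12 library, and the log2 change was 0.57 with a standard error of 0.12 (adjusted p = 0.0607). Sdf2l1, a partner of BiP, stood at 639, 601 and 524 and then at 851, 903 and 993, with a change of 0.64 (adjusted p = 0.0911). Calr encodes the lectin chaperone calreticulin, which stood at 8181, 10086 and 9550 and then at 12361, 11946 and 13255. Hsp90b1, the HSP90 of this compartment, stood at 8352, 7882 and 8217 and then at 11127, 11704 and 9597. For Pdia6, a disulfide isomerase, the values were 5824, 6269 and 5972 and then 8004, 7792 and 8017. The groups did not overlap in any of these 5 genes, and the last 3 had log2 changes of 0.44, 0.40 and 0.40 with adjusted p of 0.147, 0.184 and 0.198.

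The promoters of these genes are known for the endoplasmic reticulum stress element, the site of ATF6 with NF-Y. Promoters of 24 of the 30 members were matched by symbol in the RefSeq table (GRCm38.p6). The element's letters, CCAAT and CCACG with 9 free bases between them, were searched on both strands in the 250 bases before the start and found in 9 of these 24 (37.5%), namely Calr, Canx, Creld2, Derl3, Dnajc3, Hsp90b1, Hspa5, Pdia6 and Syvn1. Of all 27025 RefSeq genes with a promoter 35 held it (0.13%), and of the 9011 matched genes tested 14 did (0.155%). The 4 promoters below are shown since their genes are abundant members with non-overlapping groups, and were chosen after the values were seen. Capitals mark the fixed letters of the element on either strand and, in Calr, also a CACGTG E-box. They lie at chr2:34771840-34772089 on the plus strand (Hspa5), chr10:86705445-86705694 on the minus strand (Hsp90b1), chr8:84846932-84847181 on the minus strand (Calr) and chr12:17266339-17266588 on the plus strand (Pdia6).

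Hspa5: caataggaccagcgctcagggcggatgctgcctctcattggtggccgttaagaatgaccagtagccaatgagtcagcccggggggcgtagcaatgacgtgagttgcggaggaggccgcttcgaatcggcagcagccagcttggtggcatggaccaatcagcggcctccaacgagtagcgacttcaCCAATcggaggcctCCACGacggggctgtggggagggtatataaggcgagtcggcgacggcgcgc
Hsp90b1: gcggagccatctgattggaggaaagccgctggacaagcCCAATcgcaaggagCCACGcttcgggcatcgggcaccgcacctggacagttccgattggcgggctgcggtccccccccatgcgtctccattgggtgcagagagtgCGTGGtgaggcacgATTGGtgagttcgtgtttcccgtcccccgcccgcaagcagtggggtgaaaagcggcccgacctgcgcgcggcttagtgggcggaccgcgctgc
Calr: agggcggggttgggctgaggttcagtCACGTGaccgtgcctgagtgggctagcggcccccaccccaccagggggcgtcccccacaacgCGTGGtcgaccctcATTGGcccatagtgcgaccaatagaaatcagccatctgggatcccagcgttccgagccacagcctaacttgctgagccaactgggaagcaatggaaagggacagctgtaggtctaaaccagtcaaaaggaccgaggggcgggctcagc
Pdia6: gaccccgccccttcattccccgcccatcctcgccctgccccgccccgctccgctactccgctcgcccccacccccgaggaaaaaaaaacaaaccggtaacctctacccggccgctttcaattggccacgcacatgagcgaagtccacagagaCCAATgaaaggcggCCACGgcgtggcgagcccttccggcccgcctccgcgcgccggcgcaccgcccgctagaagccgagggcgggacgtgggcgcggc

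Counted back from the start, the element spans bases 65 to 47 in Hspa5, 162 to 144 in Calr and 98 to 80 in Pdia6, and Hsp90b1 holds 2, at bases 212 to 194 and 107 to 89. A match is a description of letters, and no binding was measured.

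Cytosolic heat shock chaperones and their partners were likewise mostly higher at ZT16. Of 30 members 27 were tested, with Hspb1, Hspb8 and Cryab below the minimum level. Of the 27, 13 were higher in all 3 ZT16 libraries and none was lower in all 3, beside 6.67% and 7.03% of all genes, and 25 had a change above 0, with a median of 0.35 beside -0.005 over all genes. None passed by the main limma fit or edgeR, and 13 were higher at an unadjusted p under 0.05. DESeq2 called 4, namely Cacybp, Hsp90aa1, Hsph1 and Ptges3. Limma with only the 6 libraries of ZT12 and ZT16 called the same 4, and with array weights it called Ptges3.

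Hsph1 encodes HSP110, the exchange factor of HSP70. It stood at 363, 440 and 314 normalized reads at ZT12 and at 1054, 781 and 775 at ZT16, a log2 change of 1.22 with a standard error of 0.27 (adjusted p = 0.150). All ZT16 libraries were well above the ZT12 libraries. Hsp90aa1, the inducible cytosolic HSP90, stood at 506, 530 and 623 and then at 994, 1023 and 810 (log2 change 0.77, adjusted p = 0.222). Its co-chaperone Ptges3 (p23) stood at 493, 584 and 545 and then at 832, 844 and 841 (0.64, adjusted p = 0.0980). Cacybp, a partner of SIAH1 and HSP90, stood at 439, 490 and 523 and then at 772, 855 and 760, and Ahsa2, a relative of the HSP90 activator, at 204, 242 and 221 and then at 337, 352 and 383. In these genes, too, the groups did not overlap. The inducible HSP70 gene Hspa1b, named after its values were seen, stood at 21.1, 54.7 and 51.0 and then at 167, 59.5 and 86.6, and it has a near-identical copy, Hspa1a, so that its count is uncertain. Within this list, the letters of the heat shock element, GAA, TTC and GAA with 2 free bases between neighbours, were found in 1 of 22 matched promoters, that of Dnajb6, beside 0.514% of all RefSeq genes and 0.466% of the matched genes tested. Among mitochondrial chaperones they were found in 2 of 8 matched promoters, those of Hspd1 and Hspe1. Only this exact form was searched, so elements that depart from these letters were not counted.

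All 8 subunits of the CCT chaperonin, which folds actin and tubulin, had a change above 0, with a median of 0.16 and 3 of 8 higher in all ZT16 libraries, beside 6.67% of all genes. Among 9 mitochondrial chaperones, 8 had a change above 0, and Hspd1, the mitochondrial HSP60, stood at 566, 516 and 536 and then at 805, 822 and 732. The cold-inducible RNA-binding proteins differed from each other. Cirbp stood at 423, 383 and 415 at ZT12 and at 172, 182 and 143 at ZT16, with no overlap. Its log2 change was -1.30 with a standard error of 0.30 (adjusted p = 0.169). DESeq2 and limma with only the 6 libraries of ZT12 and ZT16 called it lower. Its relative Rbm3 overlapped, at 86.5 to 122 and 81.2 to 127.

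**Figure D2:**
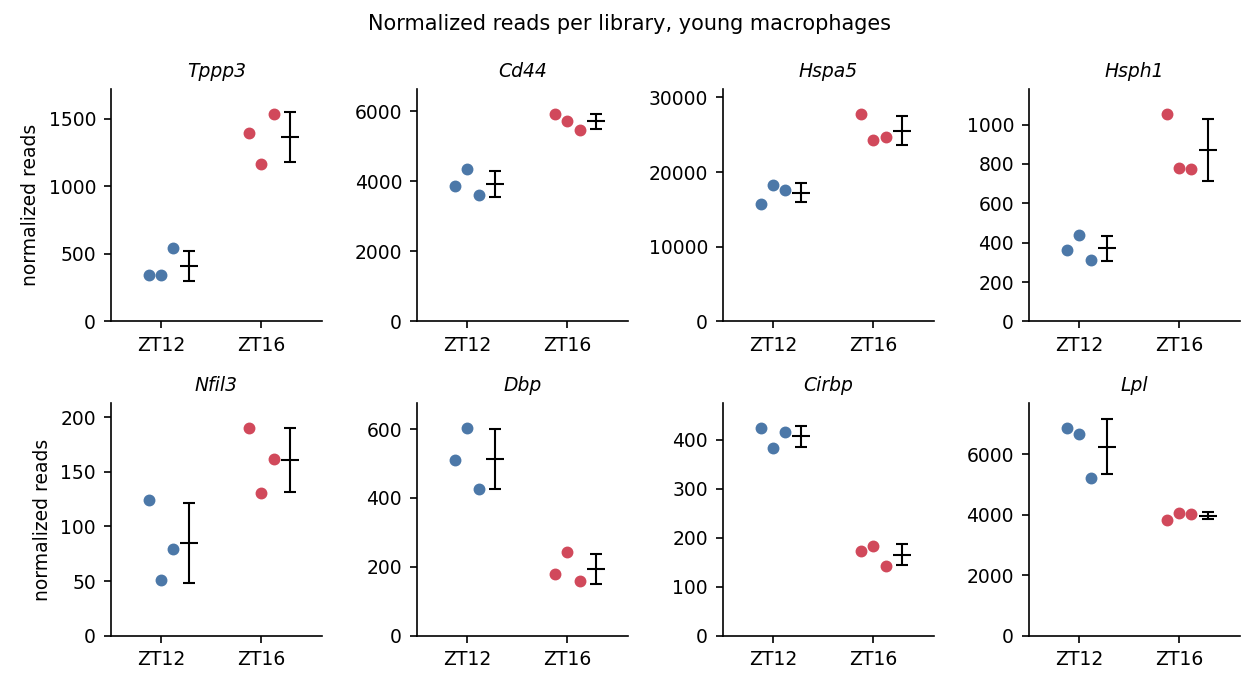
Normalized reads (vertical axis, from 0) of 8 genes in the 3 ZT12 libraries (blue points) and the 3 ZT16 libraries (red points) of young macrophages; the black mark and bar give the mean and SD. The groups do not overlap in any of the 8 genes. Of them Tppp3 and Cd44 passed the adjusted threshold in the main limma fit.

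**Figure D3:**
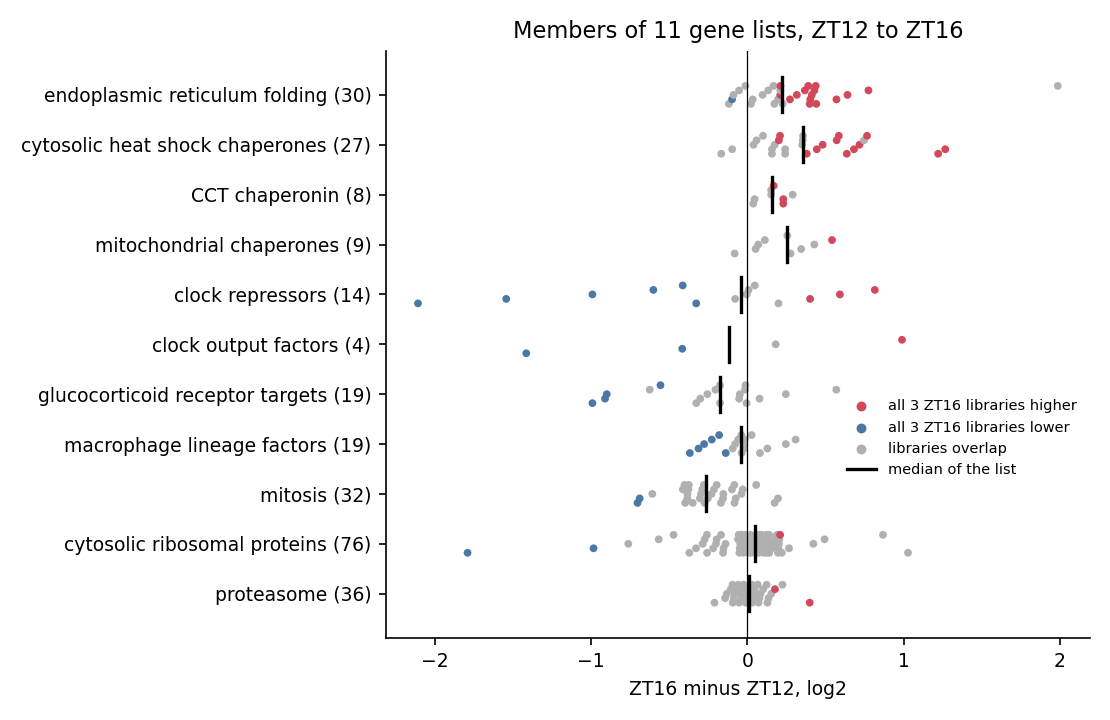
Log2 change from ZT12 to ZT16 (horizontal axis) of every tested member of 11 lists (rows, number tested in parentheses). Red and blue points had all 3 ZT16 libraries higher or lower, grey points overlapped, and the black line is the list's median; the 2 large chaperone lists have medians of 0.22 and 0.35.

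Clock genes differed in both directions, and none passed by the main limma fit. Of 14 tested repressors, 3 were higher and 6 lower in all ZT16 libraries, beside 6.67% and 7.03% of all genes, and 1 higher and 4 lower ones had an unadjusted p under 0.05. By edgeR none of the repressors passed, and Nr1d1 did by DESeq2 and by limma with only the 6 libraries of ZT12 and ZT16. Per1, the light- and glucocorticoid-responsive period gene, stood at 764, 966 and 624 and then at 578, 356 and 283 (log2 change -0.99, standard error 0.27, adjusted p = 0.247). Per2 stood at 408, 557 and 351 and then at 670, 595 and 689, and Per3 at 665, 518 and 492 and then at 436, 367 and 446. The period genes thus stood apart, with Per2 above and Per1 and Per3 below in every ZT16 library. Cry1, a late repressor, stood at 97.6, 133 and 113 and then at 261, 188 and 165 (0.82, adjusted p = 0.338), while Cry2 stood at 211, 170 and 187 and then at 163, 141 and 146.

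The REV-ERB genes and Ciart were lower in every ZT16 library. Nr1d1, a heme-binding repressor of Arntl, stood at 141, 104 and 157 and then at 32.5, 41.5 and 65.6, and Nr1d2 at 967, 962 and 1023 and then at 636, 791 and 540. Ciart, a repressor of CLOCK and BMAL1, went from 46.6, 47.2 and 57.7 to 10.8, 13.5 and 8.75, levels of few reads. Bhlhe41 stood at 421, 551 and 548 and then at 589, 674 and 739, while Bhlhe40, Timeless, Csnk1d and Csnk1e overlapped. Of the activators, Arntl stood at 62.1, 73.6 and 76.1 and then at 72.1, 93.8 and 105, and Clock overlapped as well. Rora, an activator of Arntl, stood at 319, 288 and 323 and then at 264, 265 and 120, below throughout, with a log2 change of -0.60 that was -0.22 without ZT16 replicate 3. Npas2, Rorb, Fbxl21, Hlf and Wee1 did not pass the minimum level.

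The 2 output factors that bind the same DNA site with opposite effects differed in direction. Dbp, an activator, stood at 511, 603 and 427 and then at 179, 243 and 158. Its log2 change was -1.42 with a standard error of 0.35 (adjusted p = 0.169). By edgeR, DESeq2 and limma with only the 6 libraries of ZT12 and ZT16 it was called lower. Nfil3, the repressor, stood at 124, 50.9 and 79.5 and then at 190, 131 and 162, a change of 0.99 with a standard error of 0.23 (adjusted p = 0.145), and DESeq2 called it higher. Tef, a relative of Dbp, stood at 2774, 2631 and 2833 and then at 2266, 2072 and 1849 (-0.42, adjusted p = 0.314), and Usp2 overlapped. E-box letters CACGTG were found in 4 of 10 matched repressor promoters (Bhlhe41, Ciart, Cry1 and Per1) and in Tef among the output factors, beside 6.86% of all RefSeq genes and 10.2% of the 9011 matched genes tested.

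Of 19 tested targets of the glucocorticoid receptor, none was higher and 4 (Fkbp5, Klf9, Per1 and Zbtb16) were lower in all ZT16 libraries, beside 6.67% and 7.03% of all genes. The median change was -0.18, and it was -0.32 without ZT16 replicate 1 and -0.07 without ZT16 replicate 3. None passed by the main limma fit, edgeR or DESeq2, and 3 were lower at an unadjusted p under 0.05. With only the 6 libraries of ZT12 and ZT16, limma called Fkbp5 lower (adjusted p = 0.0083). Its adjusted p was 0.732 in the main limma fit, 0.768 by edgeR and 0.649 by DESeq2. Fkbp5, a co-chaperone of the receptor, stood at 1371, 1329 and 1177 and then at 944, 602 and 566, Klf9 at 4361, 4864 and 3896 and then at 3717, 3060 and 2283. Of 17 FOXO and fasting-feeding targets 2 were higher (11.8%) and 3 lower (17.6%) in all ZT16 libraries, beside 6.67% and 7.03% of all genes.

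Genes of inflammation differed in both directions, and none of those below passed by the main limma fit. Of 28 cytokines and chemokines, 3 were higher and 2 lower in every ZT16 library, beside 6.67% and 7.03% of all genes, with none past the threshold by limma, edgeR or DESeq2. The T cell chemokine Ccl5 stood at 77.6, 137 and 132 and then at 21.6, 81.2 and 43.8 (-1.37, adjusted p = 0.184); the T and NK cell marker sum was lower at ZT16 as well, and its part was not tested. The Ccl5 change was -0.90 without ZT16 replicate 1 and -1.83 without ZT16 replicate 2. Il6 was scarce, at 4.43, 5.66 and 7.53 and then at 19.2, 35.2 and 31.5 (2.09, adjusted p = 0.354), with no overlap. The acute phase gene Saa3 stood at 15868, 19874 and 18225 and then at 22267, 28303 and 38337. Of 41 interferon-stimulated genes 3 were higher in every ZT16 library (7.32%), near the share of all genes, and of 33 NF-kB pathway genes 4 were higher (12.1%) and 2 lower (6.06%).

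Among macrophage lineage factors, 6 of 19 were lower and none higher in all ZT16 libraries, beside 7.03% and 6.67% of all genes. The 6 included Csf1r, the receptor of the growth factor CSF1 (3189, 3797 and 3587, then 3130, 2935 and 2943), and Cebpa. The median change of this list was only -0.04, and none of its members passed the threshold by limma, edgeR or DESeq2. In aged cells none of the 19 was lower in all ZT16 libraries and 1 was higher, with a median of 0.04. Of 16 markers of monocyte-derived macrophages, 5 were lower (31.25%) and 1 higher (6.25%) in all ZT16 libraries, beside 7.03% and 6.67% of all genes. Their summed level was 61926 to 68404 at ZT12 and 49342 to 57368 at ZT16. The median change of these markers was -0.19. It lay between -0.26 and -0.10 with 1 library left out, at -0.10 without ZT12 replicate 3. The sum of 23 resident peritoneal macrophage markers overlapped. Mertk, a receptor for apoptotic cells, stood at 2574, 2868 and 2548 and then at 2266, 2025 and 1785 (-0.40, adjusted p = 0.401), and Inpp5d, the phosphatase SHIP1, at 1647, 1682 and 1481 and then at 1320, 1125 and 1169.

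In metabolism the clearest separations were in single genes. Lpl, the lipoprotein lipase, stood at 6870, 6693 and 5205 and then at 3839, 4048 and 4024. Its log2 change was -0.65 with a standard error of 0.18 (adjusted p = 0.296). DESeq2 and limma with only the 6 libraries of ZT12 and ZT16 called it lower. Of 32 glycolysis and HIF1 genes, 5 were higher and 2 lower in all ZT16 libraries, beside 6.67% and 7.03% of all genes, with a median of 0.08 that was 0.02 without ZT16 replicate 3 and 0.15 without ZT16 replicate 1. Pfkl, a phosphofructokinase, stood at 626, 653 and 547 and then at 847, 908 and 768. Of 75 respiratory chain genes, 7 were higher (9.33%) and 1 lower (1.33%), and 55 had a change above 0, with a median of 0.07 that turned to -0.02 without ZT16 replicate 2 and was 0.13 without ZT16 replicate 1. In the lysosome list, Tfe3, a regulator of lysosomal genes, stood at 1039, 1051 and 1120 and then at 769, 796 and 774 (-0.46, adjusted p = 0.268), and Mcoln1, a lysosomal calcium channel, at 225, 234 and 212 and then at 147, 137 and 157. Of 38 members of that list, 4 were higher (10.5%) and 5 lower (13.2%) in all ZT16 libraries.

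Of 32 mitosis genes, 29 had a change below 0 and 2 were lower in all ZT16 libraries (6.25%), beside 7.03% of all genes. Their median was -0.26, and none passed the threshold by limma, edgeR or DESeq2. The median rested on single libraries, at 0.0004 without ZT16 replicate 1 and -0.59 without ZT16 replicate 3. Aurkb, a mitotic kinase, stood at 135, 139 and 134 and then at 72.1, 77.6 and 102. Of 32 DNA replication genes 23 had a change above 0. In all ZT16 libraries 2 were higher (6.25%), near the 6.67% of all genes. The median of 0.09 was -0.13 without ZT16 replicate 3 and 0.31 without ZT16 replicate 1. Cytosolic ribosomal proteins, proteasome genes and p53 targets had medians of 0.05, 0.01 and 0.03, each of which turned below 0 under some alternative: -0.05 without ZT16 replicate 2, -0.004 with array weights and -0.04 without ZT12 replicate 3.

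Several genes near the threshold belong to no list and were named after their values were seen. At an adjusted p under 0.1 stood 11 genes, 9 higher and 2 lower. Pdlim1, an actin-associated adaptor, stood at 1928, 1893 and 1752 and then at 2710, 3017 and 2755 (0.61, adjusted p = 0.0607). Slc35a2, the UDP-galactose transporter of the Golgi, stood at 319, 278 and 301 and then at 549, 482 and 474 (0.74). Tppp, a relative of Tppp3, stood at 185, 240 and 333 and then at 548, 523 and 662 (1.22, adjusted p = 0.222), again with no overlap. Igf1, the growth factor, stood at 948, 974 and 1031 and then at 655, 698 and 558 (-0.63, adjusted p = 0.145).

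The step sits differently in the day for these genes. Tppp3 was at 284 ± 62.2 at ZT8 and, after its ZT16 value, at 815 ± 120 at ZT20 and 1409 ± 159 at ZT24. Hspa5 was at 15275 ± 957 at ZT8, 20751 ± 1887 at ZT20 and 32532 ± 3993 at ZT24. Both had a ZT16 mean above the means at ZT12 and ZT20. At ZT24 Hspa5 had its highest mean of the day, and Tppp3 was within 1 SD of its ZT16 value. The highest Tppp3 mean was at ZT0, with a wide spread (1647 ± 731), and its ZT4 value was 695 ± 62.6. Dbp had its highest mean at ZT12 and was at 79.0 ± 8.17 by ZT20, and Nfil3 had its lowest mean at ZT12. Relative to ZT12, the median of the 27 cytosolic heat shock members was 0.35 at ZT16, 0.11 at ZT20 and 0.54 at ZT24 on the log2 scale.

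**Figure D4:**
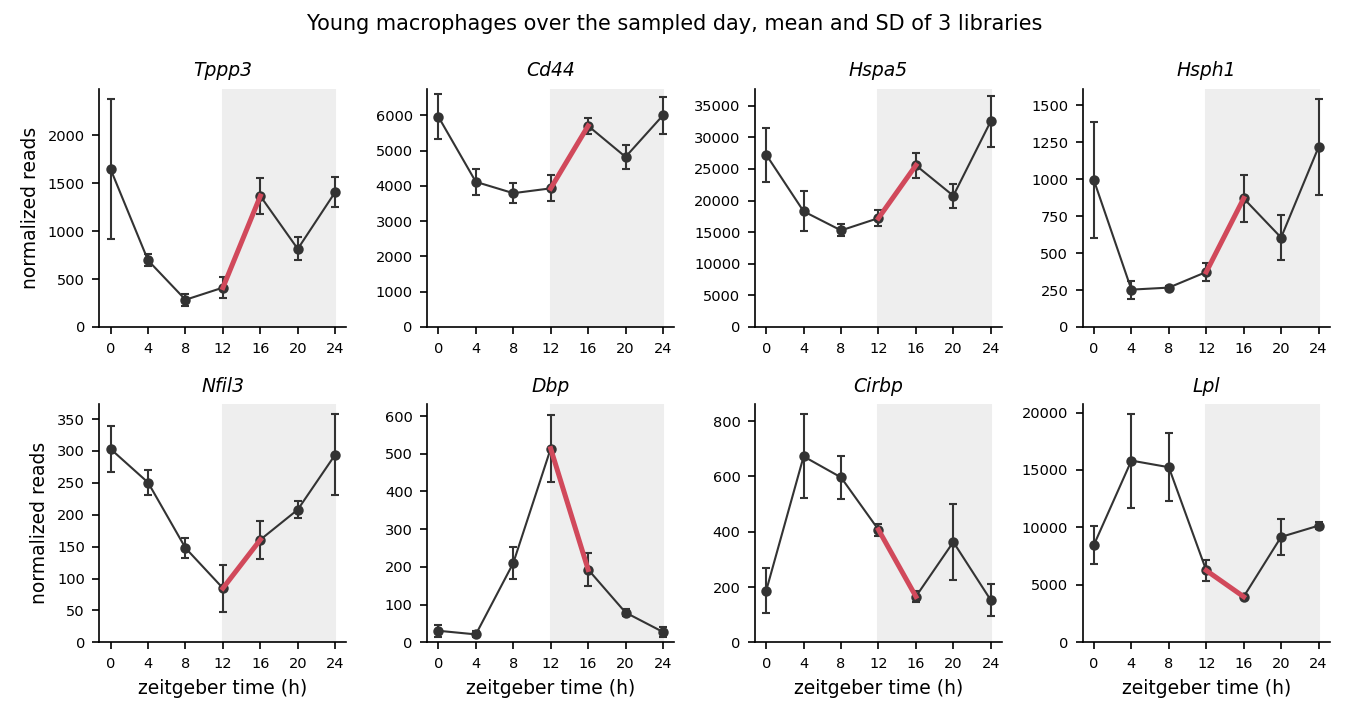
Mean normalized reads (vertical axis, from 0) of 8 genes in young macrophages at 7 zeitgeber times (horizontal axis, h); bars are the SD of 3 libraries, the red segment is the step from ZT12 to ZT16, and the shading marks the times from ZT12 on. Tppp3, Cd44, Hspa5 and Hsph1 have a ZT16 mean above those of ZT12 and ZT20.

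In aged macrophages the same step called 2 of 12016 genes (0.0166%), Nr1d1 lower and Bcl2a1b higher. The aged and young libraries are separate samples, and the 2 tables were normalized separately, so only changes within an age are set side by side. Tppp3 had an aged change of 1.14 with a standard error of 0.34 (adjusted p = 0.628) and Cd44 one of 0.40 with a standard error of 0.21 (adjusted p = 0.924). Aged Nr1d1 stood at 140, 122 and 102 at ZT12 and at 11.8, 10.6 and 0 at ZT16 (-4.51, standard error 0.75, adjusted p = 0.0399), beside -1.54 in young cells. Bcl2a1b, an anti-apoptotic gene with near-identical copies, so that its count is uncertain, stood at 117, 161 and 132 and then at 397, 239 and 347 (1.24, adjusted p = 0.0461), beside 0.41 in young cells. Both aged calls ended with a pseudocount of 0.5, and that of Bcl2a1b also with the replicate number as a block. Without 1 aged library at a time, Nr1d1 stayed called without ZT16 replicate 1 or 2, and Bcl2a1b without ZT16 replicate 2. The test of the difference itself called none of 12086 genes by limma, edgeR or DESeq2, with 478 at an unadjusted limma p under 0.05 (3.95%). The difference for Nr1d1 was -3.02 with a standard error of 1.08, at an unadjusted p of 0.00756 and far from the threshold after adjustment, where the lowest adjusted p of all genes was 0.99955.

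Chaperones were again on the higher side in aged cells. Of 30 endoplasmic reticulum folding genes 7 were higher in all aged ZT16 libraries and none lower, with a median of 0.18, and of 27 cytosolic heat shock genes 8 were higher and none lower, with a median of 0.24. Over all genes, 5.02% were higher and 5.08% lower in all aged ZT16 libraries. Glucocorticoid receptor targets had a median of -0.33, with 7 of 19 lower. Monocyte-derived macrophage markers had a median of 0.63 in aged cells beside -0.19 in young cells, and no gene's difference passed. Of 896 genes with an unadjusted p under 0.05 in young cells that were tested in aged cells, 616 (68.8%) had the same sign there, as did 56.6% of all genes tested in both.

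**Figure D5:**
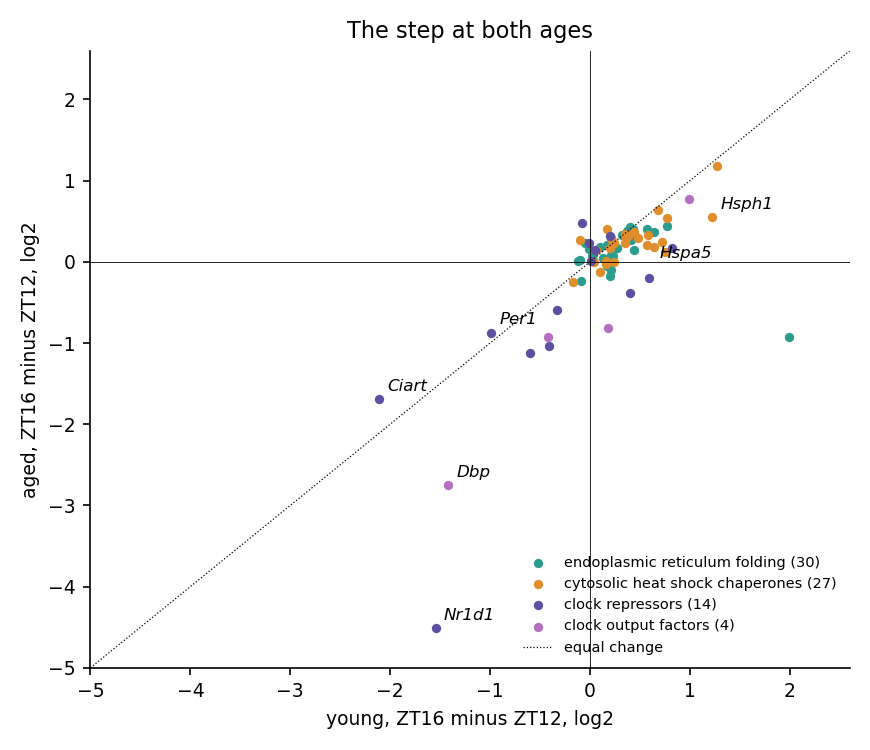
Log2 change from ZT12 to ZT16 in aged macrophages (vertical axis) against young macrophages (horizontal axis) for tested members of 4 lists, with the number in parentheses and a dotted line of equal change. Dbp and Nr1d1 lie lower in aged cells (-2.75 and -4.51 against -1.42 and -1.54), and no difference passed the test.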

How the data were processed

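Trizol-extracted RNA of macrophages was made into QuantSeq 3' libraries, per the labels' protocols. The submitters' processing notes list STAR, DESeq2 and mm10, with versions, counter and annotation not given in the sources used here. Deposited values are normalized signal: in each table (1 per age) every value was a whole number of reads (100% of values, tolerance 0.001) divided by a size factor, between 0.832 and 1.20 in the 6 libraries compared. Each table held 47643 genes. Positions are from GENCODE M21.

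Genes with a mean of at least 10 over the 21 young libraries were put on the scale log2(value + 1). limma-trend with robust empirical Bayes (limma 3.58.1, R 4.3.3) fitted 7 group means with 14 residual degrees of freedom, and p-values were Benjamini-Hochberg adjusted over all genes tested. Aged cells were fitted alike, and the difference between ages in recovered reads of all 42 libraries scaled together. edgeR 4.0.16 and DESeq2 1.42.0 on recovered reads were alternatives, beside other pseudocounts, filters, scalings, weights and left-out libraries. The fit was also run on simulated data, and the outcome is not reported here. An exact permutation test of 3 against 3 cannot go below 0.1, so none was used.

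The comparison and the 47 gene lists were chosen with earlier results of these data known. Named genes are the called genes whose groups do not overlap (up to 15 in each direction), every measured clock gene, and from any other list up to 5 members by lowest p; further names are marked as chosen after their values were seen. A few genes under this rule or near the threshold are not reported here. No pair of replicate libraries agreed within counting error, so none was counted as a copy. Intervals cover neither PCR duplication, since the reads carry no molecular identifiers, nor misplaced 3' ends in the annotation.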

Additional observations from a re-analysis of the deposited data

How the results depend on the processing

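The young count of 2 called genes was 1 with a pseudocount of 0.5, with scaling to the total or without robust empirical Bayes, 4 with a pseudocount of 5 or without a filter on low values, 5 with upper quartile scaling or edgeR, 13 with array weights, 22 with only the 6 libraries of ZT12 and ZT16, 34 with DESeq2 (21 higher and 13 lower, 2114 genes without an adjusted p) and 11 at an adjusted p under 0.1. Leaving out 1 library at a time gave 0 to 1. The aged count of 2 was 0 with a pseudocount of 0.5, 6 without a filter and 18 with DESeq2, and 0 to 4 without 1 library. The count of 0 for the difference between ages was 1 without a filter and 0 without any 1 library. With the replicate number as a block, the young count was 2, with the same 2 genes, the aged count 1 (Nr1d1, with Bcl2a1b lost) and the difference 0. Over all genes, libraries with the same number did not deviate together between ZT12 and ZT16 (correlations of 0.05, 0.00 and -0.04). Pairs of different number had correlations of -0.06 to 0.08. These values cover all genes at once, so a pairing that touches only some genes was not tested by them. All genes shifted little with scaling, with a median change of -0.01 (total) and 0.01 (upper quartile), but the count of genes higher and lower in all ZT16 libraries was 758 and 926 with the first and 912 and 767 with the second. Under the 19 alternatives, 13 to 18 of the cytosolic heat shock members and 15 to 18 of the endoplasmic reticulum folding members were higher in every ZT16 library used. Other pseudocounts, tools and weights use the same values, so they could not change this count. Leaving out a library can only keep or raise it. Over all genes the count of 808 then became 1327 to 1568. Neither Tppp3 nor Cd44 changed direction under any alternative. Among values that passed no test, the small changes of Timeless, Csnk1e, Usp2 and Rbm3 and the medians of the respiratory chain, ribosomal protein, proteasome, p53, mitosis and DNA replication lists changed sign under at least 1 alternative (Timeless from -0.32 to 0.52). The causes of these differences were not tested. With 3 libraries per time, precision is limited by their spread (median standard error 0.22 on the log2 scale) and for genes with few reads by counting.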
